A study of Rattus norvegicus with 36 samples.

Results

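Hif1a encodes the oxygen-regulated subunit of hypoxia-inducible factor 1 (HIF-1). It is described here together with 9 genes that are known HIF targets, namely the prolyl hydroxylase genes Egln1 and Egln3, the histone demethylase gene Kdm3a, the oxidoreductase gene Ero1a, the mitophagy receptor genes Bnip3 and Bnip3l, the secreted factor genes Adm and Vegfa, and the adenylate kinase gene Ak4. The 10 genes were chosen by symbol from the 23487 gene symbols of the deposited table. All 10 were among the 14498 genes that passed the filter on low counts. RNA was sequenced from primary alveolar macrophages, the phagocytes of the air spaces, of male rats of the strain F344/HanZtmRj. The cells were kept in culture for 5 days, and exposure in culture lasted 4 days. The particles were Printex90, a carbon black, and the titanium dioxides G1-1, G3-1 and Bayertitan. Each particle had its own control group, a group labelled non-overload and a group labelled overload, with 3 libraries in each of the 12 groups and 36 libraries in all. The particle doses behind the words non-overload and overload and the age of the rats are not given in the sources used here. The libraries are labelled biological replicates, with no word on separate animals, so the p-values measure only the spread between these libraries, which may be technical.

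HIF is a transcription factor made of an alpha subunit, such as the Hif1a product, and the constant partner encoded by Arnt. In oxygenated cells prolyl hydroxylases modify the alpha subunit, which is then bound by the von Hippel-Lindau protein and degraded, so its abundance is set mainly at the protein level and not by its mRNA. When hydroxylation slows, the stabilised factor binds short motifs near its target genes, and because Egln1 and Egln3 are themselves targets, the pathway feeds back on its own sensors. Macrophages also stabilise HIF without low oxygen, for example after inflammatory stimuli. Protein was not measured, so the data give transcript levels only.

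The core letters of the HIF-binding motif, ACGTG or GCGTG, were searched on both strands in RefSeq promoter windows of the rat build GRCr8, each reaching from 250 bases before to 50 bases after the annotated transcript start. The table held 10 windows for 8 of the 10 genes, with none for Ero1a and Bnip3l. The windows below are those of the factor itself and of the 3 genes with a window that rose in the most overload comparisons. They read 5′ to 3′ on the gene's strand, with motif letters in capitals. CACGTG holds the motif on both strands and is counted as 2 matches, and CACGC is GCGTG on the other strand.
Bnip3, chr1:203154913-203155212, minus strand: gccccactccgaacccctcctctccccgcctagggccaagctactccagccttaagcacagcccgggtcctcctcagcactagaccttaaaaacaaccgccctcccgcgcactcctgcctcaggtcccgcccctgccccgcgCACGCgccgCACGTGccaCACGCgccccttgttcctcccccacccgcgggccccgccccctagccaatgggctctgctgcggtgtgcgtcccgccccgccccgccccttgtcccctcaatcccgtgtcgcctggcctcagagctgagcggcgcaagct
Egln1, chr19:69804632-69804931, minus strand: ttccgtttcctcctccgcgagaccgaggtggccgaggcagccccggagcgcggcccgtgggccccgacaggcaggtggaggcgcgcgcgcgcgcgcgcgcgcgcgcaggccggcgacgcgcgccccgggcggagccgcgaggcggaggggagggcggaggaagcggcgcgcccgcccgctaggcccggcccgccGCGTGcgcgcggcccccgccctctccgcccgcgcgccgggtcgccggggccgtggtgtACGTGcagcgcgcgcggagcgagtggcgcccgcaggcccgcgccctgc
Ak4, chr5:121154886-121155185, plus strand: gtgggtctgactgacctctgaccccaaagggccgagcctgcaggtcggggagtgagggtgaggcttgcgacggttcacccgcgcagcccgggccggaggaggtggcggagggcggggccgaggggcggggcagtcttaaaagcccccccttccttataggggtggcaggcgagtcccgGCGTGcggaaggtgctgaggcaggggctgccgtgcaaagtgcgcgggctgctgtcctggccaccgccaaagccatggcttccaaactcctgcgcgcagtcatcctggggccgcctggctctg
Hif1a, chr6:98359648-98359947, plus strand: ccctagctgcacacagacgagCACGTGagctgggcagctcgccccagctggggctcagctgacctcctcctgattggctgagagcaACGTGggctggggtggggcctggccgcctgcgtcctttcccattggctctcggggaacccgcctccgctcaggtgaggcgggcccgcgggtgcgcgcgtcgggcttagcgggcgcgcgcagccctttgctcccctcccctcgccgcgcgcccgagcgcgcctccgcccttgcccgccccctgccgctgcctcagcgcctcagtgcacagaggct
Bnip3 had 4 matches, among them a CACGTG flanked by CACGC letters on both sides, Hif1a had 3, Egln1 had 2 and Ak4 had 1. The second window of Kdm3a had 1 match, and the windows of Egln3, Adm and Vegfa had none. For scale, 41.6% of all 33469 windows held at least 1 match, 19.2% at least 2, 8.15% at least 3 and 3.46% at least 4. A match describes the letters of the window, and a window without one says nothing of sites elsewhere.

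Column totals of the estimated counts ran from 22274300 to 37131500, and expression is given as CPM, the counts scaled to a common library size after TMM scaling. Macrophage markers had a summed level of 12739 to 22006 CPM over 9 genes, with 0 or 1 of the 9 at 0 in each library. Among them Marco did not pass the filter on low counts, and the further listed marker Ear2 had no entry. Col3a1, a collagen gene of fibroblasts, stood at 12.8 CPM or more in 15 libraries (5 control, 6 non-overload and 4 overload libraries) while each of the remaining 21 held 1 count or none. The summed level of 5 fibroblast genes ran from 15.9 to 1058 CPM in control, 19.5 to 3145 CPM in non-overload and 20.9 to 1591 CPM in overload libraries. Epithelial genes were in every library, with a sum over 8 genes of 875 to 1594 CPM (median 1150 CPM) in control libraries and 653 to 1341 CPM (median 972 CPM) in overload libraries, and 1 or 2 of the 8 at 0. Among the 8 epithelial genes, Sftpc and Sftpb did not pass the filter on low counts. The epithelial means below rest on the other 6. Endothelial (12.5 to 31.2 CPM), neutrophil (6.92 to 15.6 CPM), lymphocyte (2.53 to 5.95 CPM) and erythroid genes (0 to 0.0724 CPM) were low. The summed macrophage level in the G1-1 cultures was 20873, 18882 and 15776 CPM in the controls and 13612, 15231 and 15338 CPM after overload. All 3 overload libraries lay below the controls. Gene by gene, the 8 tested macrophage markers had a median log2 fold change of 0.060 with G1-1 overload. Of these, 1 was called higher (2.3% of all genes) and 1 lower (2.71%). The part of the summed level in the G1-1 results was not tested. The main results without the 15 libraries with Col3a1 stand beside those with all libraries.

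The comparison of each overload group with its own controls asked which of the genes moved with a heavy particle load. With G1-1, 8 of the 10 genes rose (edgeR quasi-likelihood test, adjusted p under 0.05), all except Hif1a and Bnip3l, where 2.3% of all tested genes were called higher. With Printex90, Egln1, Ero1a, Bnip3 and Ak4 rose, 4 of 10 against 5.15% of all genes. The same 4 genes rose with G3-1, where 13 genes, or 0.0897% of those tested, were called higher. With Bayertitan, 1 of 10 rose, Ero1a, against 5.74% of all genes. No gene of the 10 was called lower in these 4 comparisons by edgeR or DESeq2, where edgeR called 2.84%, 2.71%, 0.0276% and 4.1% of all genes lower for Printex90, G1-1, G3-1 and Bayertitan, and at an unadjusted p under 0.05 only Vegfa with Bayertitan was lower. All 3 overload libraries lay above all 3 controls for 5 of the 10 genes with Printex90 (12.8% of all genes), 8 with G1-1 (11%), 6 with G3-1 (5.66%) and 3 with Bayertitan (16.8%), and below them for 2 with Bayertitan, Egln3 and Vegfa (14.2%). The median log2 fold change of the 10 genes was 0.76 with G1-1, 0.45 with G3-1, 0.30 with Printex90 and 0.15 with Bayertitan. That of all tested genes lay between -0.0093 and 0.012. Over the 10 alternative settings, 1 of them the fit that follows, other genes lost calls too. Genes called in either direction fell as low as 48 with Printex90 (1158 as reported) and 140 with G1-1 (727). They fell to 0 with G3-1 (17) and with Bayertitan (1426). The shares above are those of the main fit only. Without the 15 libraries with Col3a1, which left 1 Printex90 control and 1 G3-1 overload library, 3 of 10 rose with G1-1, no call of the other particles passed, and 21 libraries remained. The 3 genes were Egln3, Kdm3a and Ero1a, and the log2 fold changes of Bnip3 in that fit were 1.14 with Printex90 (adjusted p = 0.0726), 0.71 with G1-1 (adjusted p = 0.105) and 0.92 with G3-1 (adjusted p = 0.617). For Egln1 they were 0.69 with Printex90 (adjusted p = 0.142), 0.64 with G1-1 (adjusted p = 0.0532) and 0.60 with G3-1 (adjusted p = 0.770), and for Ak4 0.62 (adjusted p = 0.139), 0.47 (adjusted p = 0.108) and 0.60 (adjusted p = 0.659). Ero1a was at 0.82 with G1-1 (adjusted p = 0.00435), 0.46 with Printex90 (adjusted p = 0.199), 0.49 with G3-1 (adjusted p = 0.659) and 0.25 with Bayertitan (adjusted p = 0.294).

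**Figure D1:**
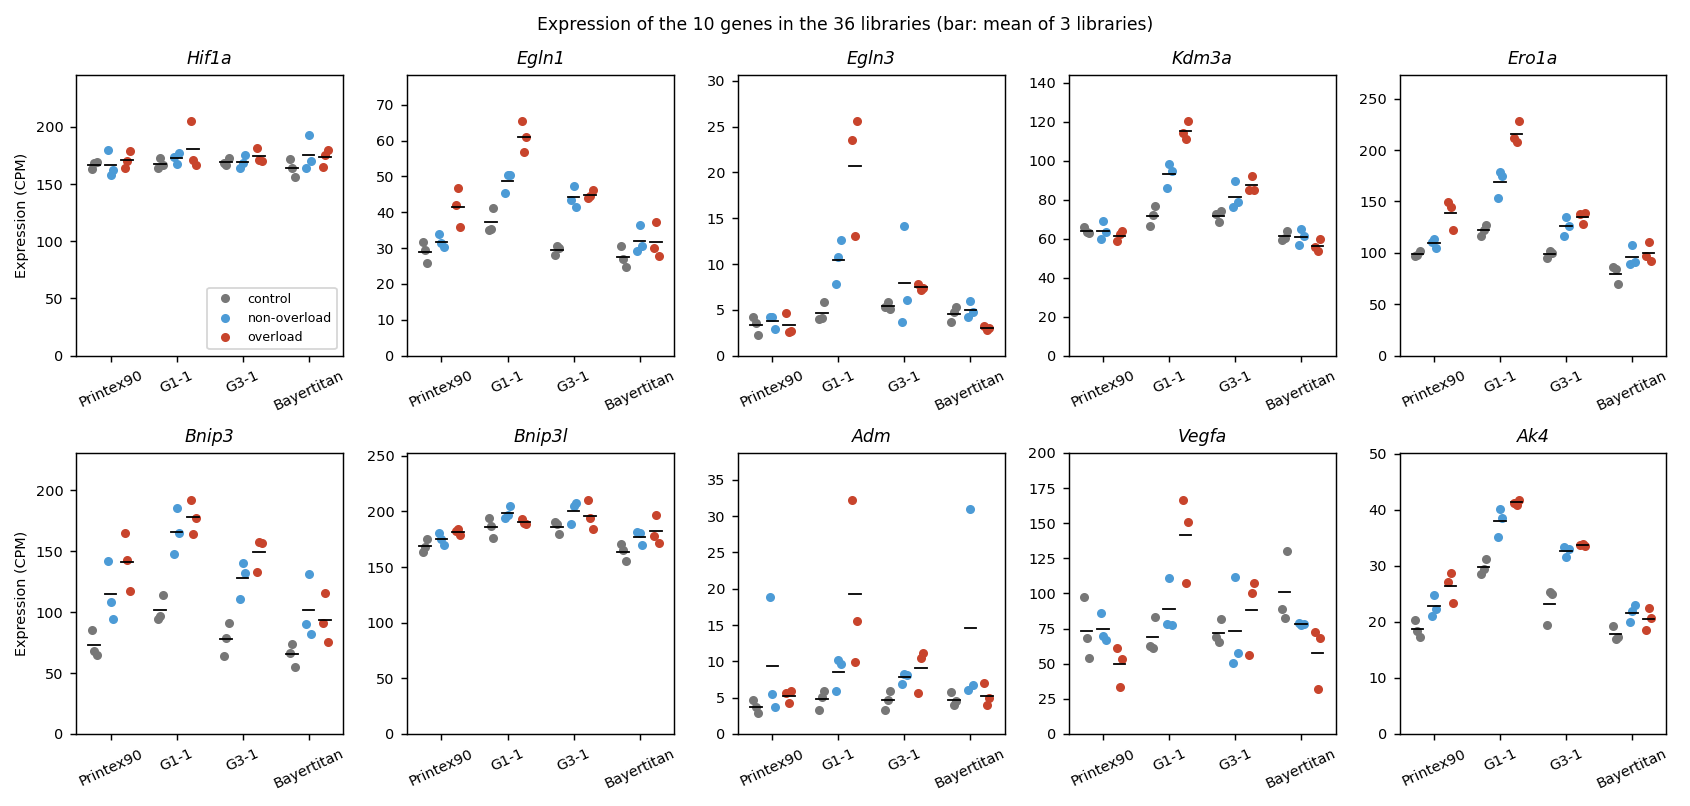
Expression in CPM (y axis, from 0) of each of the 10 genes in the 36 libraries, by particle (x axis) and condition (colour), with a bar at the mean of 3 libraries. Ero1a and Bnip3 lie above their own controls in every exposed group, Hif1a stays between 156 and 205 CPM, and Adm has single high libraries at 18.9, 31.0 and 32.3 CPM.

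At the non-overload loading, Kdm3a and Ero1a rose with G1-1, 2 of 10 where 9 genes, or 0.0621% of those tested, were called higher. For the other 3 particles edgeR called 0 of the 10 genes, and 0 of all genes (0%). At an unadjusted p under 0.05 there were 3 of the 10 with Printex90 (4.33% of all genes), 5 with G3-1 (5.39%) and 6 with Bayertitan (16.2%), all higher, and DESeq2 called 0, 2 and 0 of the 10, beside 11 (0.0759%), 11 (0.0759%) and 30 (0.207%) of all genes. All 3 non-overload libraries lay above the controls for 3 of the 10 genes with Printex90 (5.63% of all genes), 7 with G1-1 (7.07%), 6 with G3-1 (5.5%) and 4 with Bayertitan (11%), and below them for Vegfa with Bayertitan (10.7%). The median log2 fold change of the 10 genes was 0.14 with Printex90, 0.38 with G1-1, 0.42 with G3-1 and 0.17 with Bayertitan, beside medians of all genes from -0.0051 to 0.020. Both loadings were set against the same controls, so their values are not independent of each other.

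**Figure D2:**
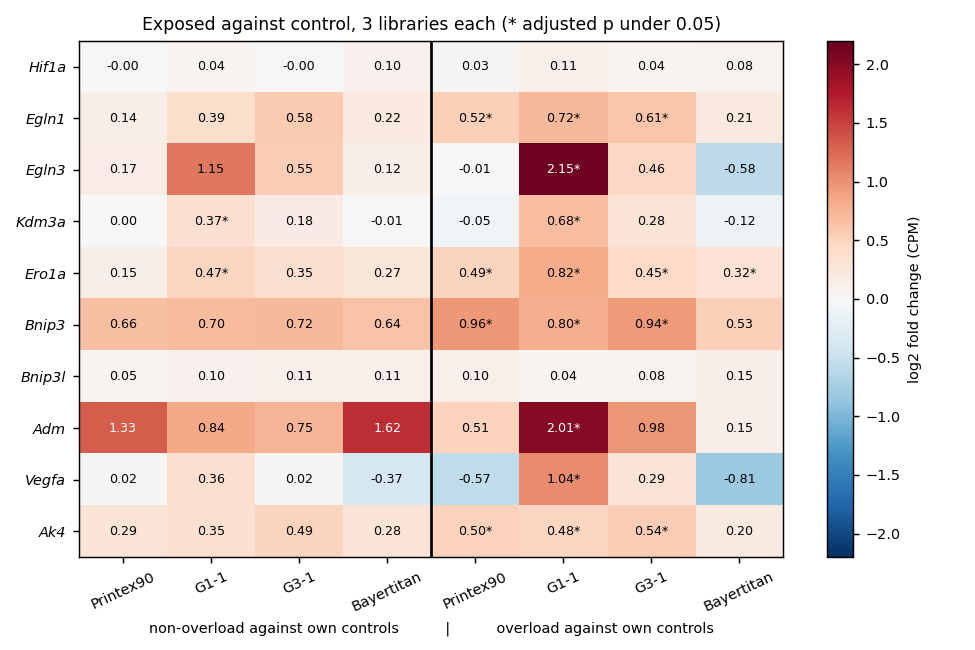
Log2 fold change of each gene (rows) against the particle's own controls, for non-overload (left 4 columns) and overload (right 4 columns), with an asterisk at an edgeR adjusted p under 0.05. G1-1 overload carries 8 asterisks, and the non-overload columns carry 2, for Kdm3a and Ero1a with G1-1.

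The mRNA of the factor itself was nearly level. Hif1a ran from 156 CPM in control replicate 3 of Bayertitan to 205 CPM in overload replicate 1 of G1-1, and its 12 group means spanned a ratio of 1.10. All 11 neighbouring pairs of groups in the order of the means overlapped in their libraries. Averaged over the 4 particles, Hif1a was 0.066 on the log2 scale after overload (SE 0.032, 95% interval 0.0001 to 0.13, adjusted p = 0.141) and 0.035 after non-overload (adjusted p = 0.568). The interval for the average overload effect leaves room for a rise of at most 0.13. Within a particle the overload values were 0.033 with Printex90, 0.11 with G1-1, 0.041 with G3-1 and 0.083 with Bayertitan. Their 95% intervals were wider and reached 0.17, 0.24, 0.17 and 0.22 in the same order. In none of the 8 exposed groups did all 3 libraries lie above or below the controls.

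Egln1 encodes the main prolyl hydroxylase that marks HIF alpha subunits for degradation. With G1-1 it stood at 35.1, 35.2 and 41.1 CPM in the controls, 45.4, 50.4 and 50.5 CPM after non-overload and 65.4, 56.7 and 60.9 CPM after overload. With G3-1 the values were 28.0, 30.5 and 30.1 CPM, 43.6, 47.5 and 41.4 CPM and 43.9, 44.5 and 46.3 CPM in the same order. The 3 conditions of G1-1 did not overlap, whereas the non-overload and overload libraries of G3-1 lay together above the controls. With Printex90 the controls were at 31.6, 29.5 and 25.9 CPM, non-overload at 33.8, 31.4 and 30.3 CPM and overload at 42.1, 46.7 and 35.9 CPM, and only the overload libraries lay apart from the controls. With Bayertitan the values overlapped, at 30.6, 27.1 and 24.7 CPM in the controls, 29.1, 36.3 and 30.5 CPM after non-overload and 30.1, 37.3 and 27.8 CPM after overload. Egln1 rose with overload of G1-1 (log2 fold change 0.72 with SE 0.11, adjusted p = 8.06e-05), G3-1 (log2 fold change 0.61 with SE 0.11, adjusted p = 0.0104) and Printex90 (log2 fold change 0.52 with SE 0.11, adjusted p = 0.00373), and the Bayertitan value was 0.21 (adjusted p = 0.195). Its Printex90 call was lost without overload replicate 2 (0.43, adjusted p = 0.0604), and its G3-1 call without control replicate 1 (0.57, adjusted p = 0.166), overload replicate 2 (0.61, adjusted p = 0.0549) or overload replicate 3 (0.58, adjusted p = 0.0842). RefSeq lists 6 pseudogenes of Egln1, none of which is in the counts table, and reads shared with them, which were not measured, would make its level uncertain.

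Egln3 encodes the prolyl hydroxylase known for strong induction by HIF in many cell types. With G1-1 its libraries were at 4.02, 4.11 and 5.90 CPM in the controls, 7.81, 10.8 and 12.6 CPM after non-overload and 23.5, 13.1 and 25.6 CPM after overload, 3 sets that did not overlap. In Bayertitan cultures the controls were at 3.68, 4.79 and 5.26 CPM and the overload libraries at 3.28, 2.85 and 3.07 CPM, all 3 below the controls. With Printex90 the controls were at 4.20, 3.59 and 2.28 CPM and the overload libraries at 4.61, 2.63 and 2.69 CPM and overlapped. With G3-1 the controls were at 5.36, 5.87 and 5.10 CPM, the overload libraries at 7.84, 7.16 and 7.43 CPM and the non-overload libraries at 3.63, 14.1 and 6.13 CPM; the non-overload replicate 2 stood above the other libraries of its cultures. Egln3 rose with G1-1 overload (log2 fold change 2.15 with SE 0.34, adjusted p = 0.000197, 4.42-fold) and was at -0.58 with Bayertitan (95% interval -1.27 to 0.11, adjusted p = 0.267). Its overload effects differed between the particles (edgeR quasi-likelihood F test, adjusted p = 0.00766), where 1.72% of all genes did, and without the 15 libraries with Col3a1 that test gave an adjusted p = 0.436.

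Kdm3a, which encodes a demethylase of histone H3 and is a direct HIF target, followed G1-1 in the same way but with little scatter. Its libraries stood at 66.4, 72.0 and 77.1 CPM in the G1-1 controls, 85.9, 98.2 and 94.9 CPM after non-overload and 114, 111 and 120.2 CPM after overload, with no overlap between the 3 conditions. In the G3-1 cultures they stood at 72.6, 68.6 and 74.3 CPM, 76.1, 89.4 and 79.1 CPM and 85.2, 92.3 and 85.1 CPM, both exposed groups above the controls. With Printex90 Kdm3a was at 65.8, 63.3 and 62.9 CPM in the controls and 58.9, 62.3 and 63.8 CPM after overload, and with Bayertitan at 59.5, 60.2 and 63.9 CPM and 55.6, 53.9 and 59.8 CPM, so that neither was apart from its controls. Kdm3a rose with G1-1 at overload (log2 fold change 0.68 with SE 0.067, adjusted p = 3.73e-07) and at non-overload (log2 fold change 0.37 with SE 0.067, adjusted p = 0.0188), and overload lay above non-overload (log2 fold change 0.31 with SE 0.067, adjusted p = 0.0142), a comparison in which 0.586% of all genes were called higher. The non-overload call was lost without control replicates 1 or 2 or non-overload replicates 2 or 3 (0.32 to 0.37, adjusted p from 0.126 to 0.403), and that between the loadings without non-overload replicate 1 or overload replicates 1 or 3 (0.26 to 0.33, adjusted p from 0.0561 to 0.10). For the other particles the overload values were 0.28 with G3-1 (adjusted p = 0.0836), -0.054 with Printex90 (adjusted p = 0.664) and -0.12 with Bayertitan (adjusted p = 0.264). These overload effects differed between the particles (adjusted p = 4.90e-05), and without the 15 libraries with Col3a1 that test gave an adjusted p = 0.0676.

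Ero1a encodes the enzyme of the endoplasmic reticulum that reoxidises protein disulfide isomerase, and it was the gene with the most calls among the 10. With G1-1 it was at 116, 122 and 127 CPM in the controls, 153, 179 and 174 CPM after non-overload and 212, 208 and 228 CPM after overload. With Printex90 it was at 96.5, 97.7 and 102 CPM, 111, 113 and 105 CPM and 149, 145 and 122 CPM. In both series of cultures the 3 conditions were ordered control, non-overload, overload with no overlap. With G3-1 the values were 95.2, 102 and 99.8 CPM, 117, 135 and 126 CPM and 138, 128 and 139 CPM. With Bayertitan they were 86.1, 84.0 and 69.6 CPM, 89.7, 108 and 91.4 CPM and 97.0, 110.2 and 92.3 CPM. For these last particles both exposed groups lay above the controls and overlapped each other. Ero1a rose with overload of G1-1 (log2 fold change 0.82 with SE 0.085, adjusted p = 5.12e-07), Printex90 (log2 fold change 0.49 with SE 0.085, adjusted p = 0.000962), G3-1 (log2 fold change 0.45 with SE 0.085, adjusted p = 0.0260) and Bayertitan (log2 fold change 0.32 with SE 0.085, adjusted p = 0.0302). It also rose with G1-1 non-overload (log2 fold change 0.47 with SE 0.085, adjusted p = 0.0188), and overload exceeded non-overload with G1-1 (log2 fold change 0.35 with SE 0.085, adjusted p = 0.0260) and with Printex90 (log2 fold change 0.34 with SE 0.085, adjusted p = 0.0402), where 1.26% of all genes were called higher. The Bayertitan call was lost without control replicate 3 (0.22, adjusted p = 0.232), overload replicate 1 (0.33, adjusted p = 0.0620) or overload replicate 2 (0.25, adjusted p = 0.300), and the G3-1 call without any of its control libraries or overload replicates 2 or 3 (adjusted p from 0.0582 to 0.227). The calls with non-overload were also each lost when 1 of several libraries was left out. They were, for G1-1 non-overload against control, every control and also non-overload replicates 2 and 3 (adjusted p from 0.0852 to 0.353), for G1-1 overload against non-overload, replicates 1 and 3 of both groups (adjusted p from 0.0739 to 0.146), and for Printex90, every non-overload library and overload replicates 1 and 2 (adjusted p from 0.0540 to 0.390).

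Bnip3 encodes a receptor on the outer mitochondrial membrane that recruits autophagosomes to mitochondria. With Printex90 its libraries were at 85.8, 68.4 and 64.7 CPM in the controls, 142, 109 and 94.4 CPM after non-overload and 165, 143 and 117 CPM after overload. With G1-1 they were at 94.4, 97.1 and 114 CPM, 148, 185 and 165 CPM and 192, 164 and 177 CPM. With both particles the loadings overlapped each other but not the controls. With G3-1 the libraries were at 63.9, 78.4 and 91.0 CPM, 111, 141 and 132 CPM and 133, 157 and 157 CPM. With Bayertitan they were at 66.8, 73.8 and 55.4 CPM, 90.6, 132 and 82.0 CPM and 91.0, 116 and 75.3 CPM. Bnip3 and Ero1a were thus above their own controls in all 3 libraries of all 8 exposed groups, which held for 12 genes, or 0.0828% of those tested. Bnip3 rose with overload of Printex90 (log2 fold change 0.96 with SE 0.18, adjusted p = 0.00223), G3-1 (log2 fold change 0.94 with SE 0.18, adjusted p = 0.0260) and G1-1 (log2 fold change 0.80 with SE 0.18, adjusted p = 0.00755), and its Bayertitan value was 0.53 (adjusted p = 0.0596). At the non-overload loading the fitted values lay close together, at 0.66, 0.70, 0.72 and 0.64 for Printex90, G1-1, G3-1 and Bayertitan, with adjusted p from 0.206 to 0.719. RefSeq lists 8 pseudogenes of Bnip3, none of them in the counts table, and such shared reads, also not measured, would make its level uncertain. The G1-1 call was lost without control replicate 1 (0.75, adjusted p = 0.0541), and the G3-1 call without control replicates 1 or 2 or overload replicates 2 or 3 (adjusted p from 0.101 to 0.254).

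Bnip3l, also called Nix, encodes the related mitophagy receptor that clears mitochondria from maturing red blood cells, and it moved far less than Bnip3. Its libraries ran from 156 CPM in control replicate 3 of Bayertitan to 211 CPM in overload replicate 1 of G3-1, and its group means spanned a ratio of 1.22. No single particle gave a call, with overload values from 0.038 with G1-1 to 0.15 with Bayertitan (adjusted p = 0.0632). Averaged over the particles it rose by a small step after overload (log2 fold change 0.092 with SE 0.027, adjusted p = 0.0128, or 1.07-fold), which did not pass with scaling to column totals alone (0.043, adjusted p = 0.160) or with the epithelial mean added as covariate (0.085, adjusted p = 0.242). RefSeq lists 1 pseudogene of Bnip3l, which is not in the counts table.

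Ak4 encodes an adenylate kinase of the mitochondrial matrix, a known HIF target. With Printex90 it was at 20.3, 18.4 and 17.3 CPM in the controls, 21.1, 24.8 and 22.3 CPM after non-overload and 27.1, 28.6 and 23.4 CPM after overload. With G1-1 it was at 28.5, 29.3 and 31.2 CPM, 35.1, 40.2 and 38.4 CPM and 41.2, 40.9 and 41.8 CPM. With G3-1 it was at 19.4, 25.3 and 24.9 CPM, 33.3, 31.6 and 32.9 CPM and 33.7, 33.8 and 33.6 CPM. The exposed libraries of these 3 particles lay above their controls without exception, and the 3 overload libraries of G3-1 were nearly equal. With Bayertitan the values were 19.3, 16.9 and 17.4 CPM, 20.0, 22.0 and 23.0 CPM and 18.5, 22.5 and 20.6 CPM, where only overload overlapped the controls. Ak4 rose with overload of G3-1 (log2 fold change 0.54 with SE 0.090, adjusted p = 0.00797), Printex90 (log2 fold change 0.50 with SE 0.091, adjusted p = 0.00145) and G1-1 (log2 fold change 0.48 with SE 0.089, adjusted p = 0.00160), and was at 0.20 with Bayertitan (adjusted p = 0.137). All 3 libraries were above the controls in 7 of the 8 exposed groups, which 0.345% of all genes reached. The G3-1 call was lost without control replicate 1 (0.42, adjusted p = 0.166) or overload replicate 3 (0.54, adjusted p = 0.0781).

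Adm encodes adrenomedullin, a secreted vasodilator peptide, and its level was low and set by a few libraries. With G1-1 it was at 3.33, 5.09 and 5.93 CPM in the controls, 5.92, 10.1 and 9.60 CPM after non-overload and 32.3, 9.91 and 15.6 CPM after overload, so that overload replicate 1 stood far above the next library. With Printex90 it was at 4.63, 3.67 and 2.89 CPM, 18.9, 5.50 and 3.67 CPM and 5.69, 4.28 and 5.88 CPM, and with Bayertitan at 5.80, 3.95 and 4.48 CPM, 6.06, 31.0 and 6.76 CPM and 6.95, 3.94 and 4.89 CPM. The 3 highest libraries, G1-1 overload replicate 1, Bayertitan non-overload replicate 2 and Printex90 non-overload replicate 1, had Col3a1 at 218, 656 and 432 CPM, and the part of fibroblasts in these values was not tested. Col3a1 also stood at 271 CPM in G3-1 control replicate 3, 382 CPM in G3-1 overload replicate 2 and 303 CPM in G3-1 overload replicate 3, where Adm was at 5.93, 10.5 and 11.1 CPM. G1-1 overload replicates 2 and 3, at 9.91 and 15.6 CPM with Col3a1 at 0, were also above the 3 controls. With G3-1 Adm was at 3.30, 4.66 and 5.93 CPM, 6.94, 8.31 and 8.11 CPM and 5.67, 10.5 and 11.1 CPM. Adm rose with G1-1 overload (log2 fold change 2.01 with SE 0.54, adjusted p = 0.0264), a call that was lost without overload replicate 1 (1.42, adjusted p = 0.202), control replicate 1 (1.80, adjusted p = 0.147) or control replicate 2 (2.06, adjusted p = 0.0885), and without the 15 libraries with Col3a1 (1.23, adjusted p = 0.0892).

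Vegfa encodes a growth factor for endothelial cells and, like Egln3, had fitted overload effects of either sign. With G1-1 it was at 62.6, 61.2 and 83.4 CPM in the controls, 78.1, 111 and 77.3 CPM after non-overload and 167, 108 and 151 CPM after overload, all 3 overload libraries above the controls. With Bayertitan it was at 89.2, 82.5 and 130.4 CPM, 78.7, 77.3 and 78.6 CPM and 72.6, 31.9 and 68.1 CPM, all exposed libraries below the controls. The Printex90 libraries were at 97.7, 68.4 and 54.4 CPM, 86.3, 70.1 and 67.1 CPM and 61.4, 33.8 and 53.6 CPM and those of G3-1 at 68.8, 65.7 and 81.7 CPM, 50.2, 112 and 57.7 CPM and 56.5, 100.1 and 107 CPM, and in both the overload and control libraries overlapped. Vegfa rose with G1-1 overload (log2 fold change 1.04 with SE 0.31, adjusted p = 0.0459) and was at -0.81 with Bayertitan (95% interval -1.44 to -0.18, adjusted p = 0.0810) and -0.57 with Printex90 (adjusted p = 0.250). The overload effects differed between particles (adjusted p = 0.0485), but this test was lost without any of 17 libraries left out singly (adjusted p from 0.0506 to 0.165), and the G1-1 call without any library of that comparison but overload replicate 2 (adjusted p from 0.0501 to 0.176). The lowest Vegfa levels, overload replicate 2 of Bayertitan and of Printex90 at 31.9 and 33.8 CPM, came with epithelial marker means of 5.05 and 4.61 log2 CPM, beside 5.47 to 6.62 in the 12 control libraries. Such low means also came with higher Vegfa levels, at 4.72 in both G3-1 overload replicates 2 and 3 with Vegfa at 100.1 and 107 CPM, and at 5.05 in Bayertitan overload replicate 1 with Vegfa at 72.6 CPM. The part of epithelial RNA in the Vegfa values was tested by a covariate only. With the epithelial mean added as covariate the difference between particles had an adjusted p = 0.186. In such bulk samples fewer epithelial cells and less epithelial RNA per cell cannot be told apart. Which cells held the marker RNA was not measured.

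**Figure D3:**
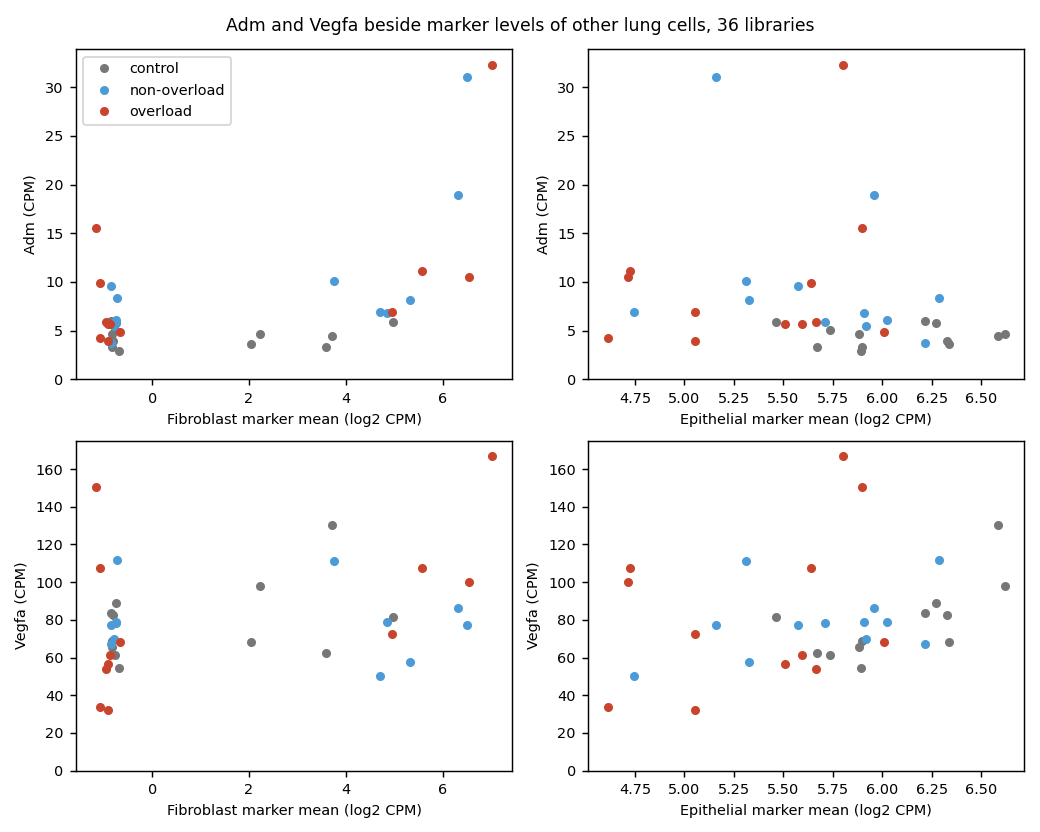
Adm (top) and Vegfa (bottom) in CPM against the mean log2 CPM of fibroblast markers (left) and epithelial markers (right) in the 36 libraries, coloured by condition. The 3 libraries with Adm above 18 CPM lie at the right of the fibroblast axis, as do G3-1 libraries with lower Adm, such as overload replicate 2 (fibroblast mean 6.55, Adm 10.5 CPM). The 2 lowest Vegfa libraries have epithelial means of 5.05 and 4.61, and 2 G3-1 overload libraries at 4.72 have Vegfa at 100.1 and 107 CPM.

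Averaging the 4 particles asked what the loadings had in common. For overload, 8 of the 10 genes rose and 0 fell, all except Hif1a and Vegfa, while 11.9% of all genes were called higher and 12.1% lower (0 of the 10 were lower at an unadjusted p under 0.05 or by DESeq2). The sizes, with 12 libraries in each arm, were 0.91 for Adm (SE 0.27, adjusted p = 0.0139), 0.81 for Bnip3 (SE 0.091, adjusted p = 7.72e-07), 0.52 for Ero1a (SE 0.043, adjusted p = 6.07e-09) and 0.51 for Egln1 (SE 0.053, adjusted p = 2.71e-07). Egln3 rose by 0.50 (SE 0.17, adjusted p = 0.0286), Ak4 by 0.43 (SE 0.045, adjusted p = 3.45e-07) and Kdm3a by 0.20 (SE 0.034, adjusted p = 0.000168). The averages of Egln3 and Kdm3a rest on particles whose effects differ, and that of Vegfa, -0.012 (95% interval -0.32 to 0.30), joins values of opposite sign. Without the 15 libraries with Col3a1, 6 of the 10 genes rose, and with the epithelial mean added as covariate also 6. The first lost Bnip3l (0.11, adjusted p = 0.0787) and Egln3 (0.62, adjusted p = 0.0764), and the second Bnip3l and Adm (0.63, adjusted p = 0.429). Over the 9 alternative settings the genes called for this average, in either direction, ran from 382 to 4052. The shares of all genes given above are thus not those of the refits. Beside the average overload effects, 4 of 6 tested epithelial markers were lower and 6 of 8 macrophage markers higher. The part of cell composition in the gene values was not tested beyond the epithelial and fibroblast covariates. The Egln3 average was lost without Printex90 control replicate 3 (0.45, adjusted p = 0.0527), Printex90 overload replicate 1 (0.42, adjusted p = 0.0620) or G1-1 overload replicate 3 (0.46, adjusted p = 0.0571).

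For non-overload, 6 of the 10 genes rose on average, where 1.55% of all genes were called higher. They were Adm (1.14, adjusted p = 0.0228), Bnip3 (0.68, adjusted p = 0.000174), Ak4 (0.35, adjusted p = 0.000101), Egln1 (0.33, adjusted p = 0.00113), Ero1a (0.31, adjusted p = 0.000210) and Kdm3a (0.14, adjusted p = 0.0283). Egln3 was at 0.50 (adjusted p = 0.0877), Bnip3l at 0.091 (adjusted p = 0.0575) and Vegfa at 0.011. The Adm average was lost without Printex90 non-overload replicate 1 (0.88, adjusted p = 0.0599) or Bayertitan non-overload replicate 2 (0.83, adjusted p = 0.0668). That of Kdm3a was lost without any of 10 libraries left out singly (0.12 to 0.14, adjusted p from 0.0532 to 0.0838). Leaving out the libraries with Col3a1 left 1 library each in Printex90 control, G3-1 non-overload and Bayertitan non-overload. Without the 15 libraries with Col3a1, 0 of the 10 genes and 1 of all genes passed, with values such as 0.64 for Bnip3 (adjusted p = 0.238) and 0.35 for Ak4 (adjusted p = 0.349) beside 0.68 and 0.35 with all libraries.

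**Figure D4:**
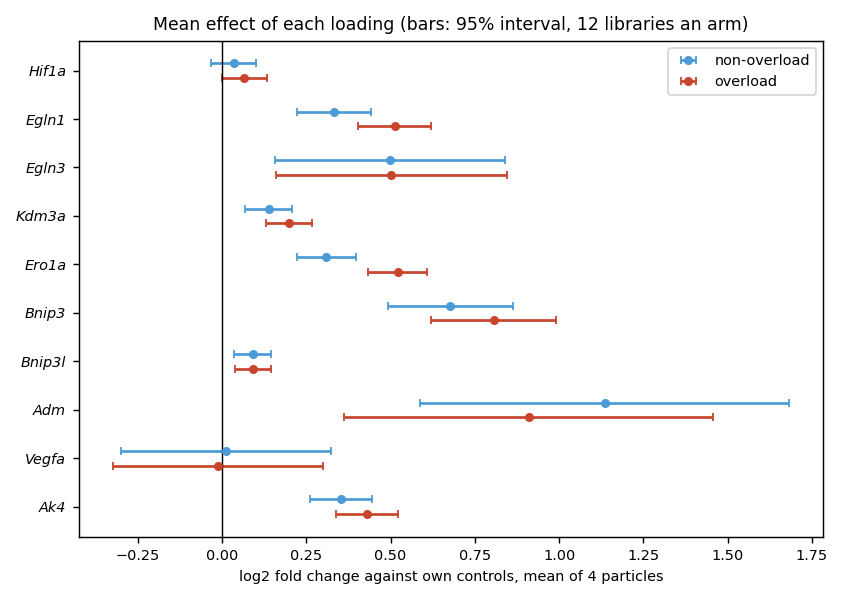
Mean log2 fold change over the 4 particles (x axis) of each gene for non-overload (blue) and overload (red) against the particles' own controls, with 95% intervals. The intervals of Vegfa at both loadings and of Hif1a at non-overload span 0, and those of the other 8 genes lie to the right of 0 at both loadings.

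Direct comparison of the loadings gave few calls. Overload exceeded non-overload for Ero1a with Printex90 and for Ero1a and Kdm3a with G1-1, and edgeR called 0 of the 10 genes for G3-1 and for Bayertitan (0% of all genes in both, and 0 of the 10 by DESeq2). At an unadjusted p under 0.05 there were 0 with G3-1 (6.35% of all genes) and 2 with Bayertitan (6.39%), Egln3 (-0.70) and Adm (-1.48), both lower after overload. The Adm value rested on Bayertitan non-overload replicate 2 and was -0.30 without it. For Bnip3 the step from non-overload to overload was 0.30 with Printex90, 0.10 with G1-1, 0.22 with G3-1 and -0.11 with Bayertitan, with intervals that all included 0.

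The particles were then compared in their overload effects. Of the 10 genes 3 differed between the particles, Kdm3a, Egln3 and Vegfa, where 1.72% of all genes did. In pairwise differences, computed after these results had been seen and adjusted over all genes within each pair, the Kdm3a effect of G1-1 exceeded that of Bayertitan by 0.80 (adjusted p = 2.26e-05), a pair in which 4.85% of all genes differed. The Printex90 effect of Kdm3a was lower than that of G1-1, with a difference of -0.74 (adjusted p = 1.68e-04) where 0.973% of all genes differed. For Egln3 the same differences were 2.72 (adjusted p = 0.00193) and -2.16 (adjusted p = 0.0230). G1-1 also exceeded Bayertitan for Vegfa by 1.85 (adjusted p = 0.0151), for Ero1a by 0.50 (adjusted p = 0.0170) and for Egln1 by 0.51 (adjusted p = 0.0475). In the 4 other pairs edgeR called no gene of the 10, where 0.145% (Printex90 and G3-1), 0.179% (Printex90 and Bayertitan), 0.214% (G1-1 and G3-1) and 0% (G3-1 and Bayertitan) of all genes differed. At an unadjusted p under 0.05 the same 4 pairs held 1, 2, 3 and 5 of the 10 genes, beside 10.9%, 4.87%, 9.93% and 8.81% of all genes. Without the 15 libraries with Col3a1 the difference of Kdm3a between G1-1 and Bayertitan still passed (0.73, adjusted p = 0.0472) and no other difference of the 10 genes did, with 2.49 for Egln3 (adjusted p = 0.156) and 1.64 for Vegfa (adjusted p = 0.253) in that pair. In that fit few of all tested genes passed in any pair, so the lost differences were not shown to be particular to the 10 genes. With all libraries, Bnip3 and Ak4 passed in no pair. The largest of their differences were 0.43 for Bnip3, between Printex90 and Bayertitan, and 0.33 for Ak4, between G3-1 and Bayertitan.

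Levels in unexposed cultures differed as well. Of the 10 genes 5 differed between the 4 control groups, where 5.59% of all genes did. Ak4 stood at 18.6 ± 1.55 CPM in the controls of Printex90, 29.7 ± 1.37 CPM in those of G1-1, 23.2 ± 3.31 CPM in those of G3-1 and 17.8 ± 1.26 CPM in those of Bayertitan (SD, n = 3 each; adjusted p = 2.08e-05). Ero1a ran in the same controls at 98.6 ± 2.61, 122 ± 5.59, 99.0 ± 3.39 and 79.9 ± 8.99 CPM (SD, n = 3 each; adjusted p = 0.000632). Both were highest in the controls of G1-1, the particle with the most calls. Egln1 (adjusted p = 0.0338), Bnip3l (adjusted p = 0.0463) and Kdm3a (adjusted p = 0.0482) also differed, by ratios of 1.35, 1.14 and 1.17 between the highest and the lowest group. Each of these 3 calls was lost without any of 9 (Egln1, Bnip3l) or 11 (Kdm3a) of the 12 control libraries left out singly (adjusted p from 0.0506 to 0.179). The control group and the set of cultures it belongs to cannot be told apart, and without the libraries with Col3a1 0 of the 10 genes passed, the nearest being Ak4 (adjusted p = 0.0581).

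The order of the group means was much alike for most genes. G1-1 overload was the highest group for 9 of the 10 genes, all but Bnip3l, and the controls of Bayertitan were the lowest for Hif1a, Egln1, Ero1a, Bnip3, Bnip3l and Ak4. Neighbours in the order were seldom apart. Among 11 neighbouring pairs, 4 did not overlap for Ero1a and for Ak4, 2 for Egln3, 1 each for Egln1, Kdm3a and Adm, and 0 for the other 4 genes. Neither the highest group nor these gaps were counted over all tested genes, so whether the order is particular to the 10 genes was not tested. Over the 12 group means, the mean of the standardised profiles of the 10 genes correlated least with that of Vegfa (r = 0.58), Hif1a (0.75) and Bnip3l (0.77) and most with that of Egln1 (0.95), a description in which each gene is part of the mean. Among 10361 other genes with a mean of at least 5 CPM, the 5 closest to this profile were Pfkfb3, a regulator of glycolytic flux (r = 0.98, rho = 0.93), the glycogen synthase gene Gys1 (r = 0.98, rho = 0.92), the hexokinase gene Hk2 (r = 0.97, rho = 0.88), Prelid2 (r = 0.96, rho = 0.90) and the transcription elongation factor gene Ell (r = 0.96, rho = 0.91). The points are groups that share culture sets, and all 5 genes were highest after G1-1 overload.

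The rest of the HIF machinery moved little in mRNA. Of 20 listed genes 18 were in the table and 17 were tested, and on average over the particles overload raised 1 and lowered 1. These shares stand beside 11.9% of all genes higher and 12.1% lower. Cited2, which competes with HIF for its coactivators, rose (log2 fold change 0.22 with SE 0.038, adjusted p = 0.000186), a call that was lost with the epithelial mean added as covariate (0.16, adjusted p = 0.0632). Epas1, which encodes the alpha subunit of HIF-2, fell (log2 fold change -0.33 with SE 0.12, adjusted p = 0.0384). That call was lost without any of 10 libraries left out singly and without the libraries with Col3a1. With the epithelial mean added as covariate the Epas1 value changed sign and was not called (0.11, adjusted p = 0.55). The direct partners stood at -0.046 for Arnt, 0.023 for Vhl, which encodes the von Hippel-Lindau protein, -0.058 for Hif1an, an asparagine hydroxylase that blocks coactivator binding, and -0.054 for Egln2, and none of these passed (adjusted p from 0.174 to 0.573). With G1-1 overload 3 of the 17 rose, against 2.3% of all genes, which beside Cited2 (0.28) were Siah2 (0.46), a ubiquitin ligase that acts on prolyl hydroxylases, and Cited4, both named after their values were seen. With Bayertitan overload Epas1 was also lower (log2 fold change -0.73 with SE 0.23, adjusted p = 0.0459), and with G1-1 it stood at 0.42 (adjusted p = 0.376). The median of the 17 genes was -0.015 for the average overload effect and 0.043 with G1-1, beside 0.0013 and -0.0063 for all genes.

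Other HIF targets outside glycolysis, 45 listed, 43 in the table and 42 tested, rose more often than they fell. For the average overload effect 22 rose and 4 fell, against 11.9% and 12.1% of all genes, with a median of 0.21 beside 0.0013 for all genes. Cxcr4, the receptor of the chemokine Cxcl12, went from a median of 84.6 CPM in the 12 control libraries to 116 CPM in the 12 overload libraries (log2 fold change 0.50 with SE 0.053, adjusted p = 4.06e-07). Pdk1, a kinase that closes pyruvate dehydrogenase, went from 34.1 to 52.8 CPM (log2 fold change 0.52 with SE 0.066, adjusted p = 4.83e-06), Fam162a from 32.6 to 44.4 CPM (log2 fold change 0.37 with SE 0.049, adjusted p = 8.50e-06) and Gys1 from 56.4 to 76.9 CPM (log2 fold change 0.46 with SE 0.063, adjusted p = 1.20e-05). The 4 that fell, named after their values were seen, were Edn1 (-0.49), which encodes the vasoconstrictor endothelin 1, Ier3 (-0.38), Angptl4 (-0.37), an inhibitor of lipoprotein lipase, and the transferrin receptor gene Tfrc (-0.12). At non-overload 10 rose and 0 fell on average, where 1.55% of all genes were higher. By particle, overload raised 16 with G1-1 (2.3% of all genes), 8 with Printex90 (5.15%), 3 with Bayertitan (5.74%) and 1 with G3-1 (0.0897%), and lowered 1, with Printex90 (2.84%). With the epithelial mean added as covariate the average overload effect left 9 higher and 0 lower, and without the libraries with Col3a1 G1-1 left 8 higher.

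Genes that act with Bnip3 and Bnip3l in mitophagy, 13 listed and 12 tested, gave 5 rises and 0 falls for the average overload effect, against 11.9% and 12.1% of all genes, with a median of 0.070 beside 0.0013 for all genes. Gabarapl1 (log2 fold change 0.24 with SE 0.039, adjusted p = 0.000116) and Gabarap (log2 fold change 0.13 with SE 0.031, adjusted p = 0.00310) encode autophagosome proteins that such receptors bind. Fkbp8 (log2 fold change 0.13 with SE 0.025, adjusted p = 0.000467), a further mitophagy receptor, and Bcl2l1 (log2 fold change 0.14 with SE 0.028, adjusted p = 0.00116), an inhibitor of cell death on the same membrane, rose as well. Each of these steps was smaller than that of Bnip3 (0.81). With the epithelial mean added as covariate 2 of the 12 passed for the average overload effect. By particle, in the fit without covariate, overload raised 3 with Printex90 (5.15% of all genes), 1 with G1-1 (2.3%), 1 with Bayertitan (5.74%) and 0 with G3-1 (0.0897%). It lowered 1, with Printex90 (2.84%).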

How the data were processed

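Estimated counts per gene symbol, not whole numbers in 47.7% of values, were deposited as 1 table of 36 libraries, and per the submitters' processing notes Salmon and the rat build Rnor_6.0 were used, with versions not given in the sources used here. RNA was extracted with RNeasy and depleted of ribosomal RNA (KAPA HyperPrep with RiboErase), per the labels' protocols. The deposited estimated counts were rounded, genes were kept by filterByExpr, and CPM were computed on TMM library sizes. One model with 12 group means (24 residual degrees of freedom) was fitted over all groups, which share 1 estimate of the spread, with edgeR 4.0.16 and limma 3.58.1 in R 4.3.3, by quasi-likelihood tests with Benjamini-Hochberg adjustment over all genes at 0.05. The code was tested on simulated data. Alternatives used DESeq2 1.42.0, other scalings and filters, marker covariates, replicate blocks and fewer libraries. The 6 pairwise differences of overload effects, with and without the 15 libraries with Col3a1, were added after the results had been seen. Members, gene lists and tests were chosen with earlier results of these data known. From each list the text names up to 4 genes with the smallest p in the mean overload effect, plus 6 direct partners, and the 5 genes most like the members in pattern; Siah2, Cited4, Edn1, Ier3, Angptl4 and Tfrc were named after their values were seen. Same-numbered libraries deviated together in every pair for G1-1 overload against its controls (r from 0.13 to 0.38). Over all groups 73 of 198 pairs had r over 0.1, so this check cannot show that the numbers pair there. The labels give no pairing. Counting error is small at these depths, and the 3 libraries in each group limit the precision.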

Additional observations from a re-analysis of the deposited data

Results flagged for a closer look

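Overload effects of the 4 particles differed for 3 of the 10 genes (1.72% of all genes) and for 1 named list gene. This was a test of the difference itself (edgeR quasi-likelihood F test over the 4 effects). For Egln3, 3 of 3 overload libraries lay above all controls with G1-1 (11% of all genes) and G3-1 (5.66%). With Bayertitan 3 of 3 lay below them (14.2%). The adjusted p of Egln3 was 0.00766. For Kdm3a it was 4.90e-05, with log2 fold changes from -0.12 to 0.68. For Vegfa it was 0.0485, with log2 fold changes from -0.81 to 1.04. For Gys1, the glycogen synthase gene, it was 0.0141, and its highest group, at 137 CPM, was G1-1 overload. The Vegfa call was lost without any of 17 libraries left out singly. The calls of Egln3, Kdm3a and Vegfa were lost without the 15 libraries with Col3a1, a fit that left some groups with a lone library. The particle and the set of cultures it was given to cannot be told apart.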

How the results depend on the processing

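In 0 of 3120 results for the 10 genes, over 10 alternative settings and the 36 single-library omissions, did a called value change sign. The 3120 include the tests of differences between particles and between controls, which have no sign. They also include values called in neither fit, which could not count as a change. Many calls were lost. Leaving out the 15 libraries with Col3a1 changed the most. Of the 10 genes it then called 0 higher instead of 4 with Printex90 overload, 3 instead of 8 with G1-1 overload, 0 instead of 4 with G3-1 overload and 0 instead of 1 with Bayertitan overload. It called 0 instead of 2 with G1-1 non-overload, 0 instead of 1 and 0 instead of 2 for overload against non-overload of Printex90 and G1-1, and 0 instead of 6 for the average of non-overload. It left 0 instead of 3 genes that differed between particles and 0 instead of 5 between controls. Among list genes, 8 instead of 16 other HIF targets were higher with G1-1, and for the average overload effect 0 instead of 4 of them and 0 instead of 1 of the HIF machinery were lower. That fit has fewer samples, and a group with a lone library was assumed to vary like the others. With the epithelial mean added as covariate 2 of the 10 were called with Printex90 overload, 0 with G3-1, 0 with Bayertitan, 0 for Printex90 overload against non-overload and 3 between controls. The same covariate left, for the average overload effect, 0 higher and 0 lower of the HIF machinery, 9 higher and 0 lower of the other HIF targets and 2 higher of the mitophagy genes. With the fibroblast marker mean 3 were called with Bayertitan overload, 0 for Printex90 overload against non-overload, and 2 of the HIF machinery were higher. With the 9 libraries of a particle alone 2 were called with Printex90 overload, 0 with G3-1, 0 with Bayertitan, 0 with G1-1 non-overload, and 0 and 1 for overload against non-overload of Printex90 and G1-1. With column totals and no TMM factors 0 were called with Bayertitan overload, 1 with G1-1 non-overload, 0 for Printex90 overload against non-overload and 2 between controls, 5 of the HIF machinery were lower and 1 of the mitophagy genes was lower. With no filter these were 0 for Printex90 overload against non-overload and 2 between controls. DESeq2 size factors gave 2 for Printex90 overload against non-overload and 3 between controls. DESeq2 called 3 with Bayertitan overload, 2 with G3-1 non-overload and 2 for Printex90 overload against non-overload. The cause was not tested.

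Replicate numbers gave no clear pairing of the libraries. Of 36 same-numbered pairs within a particle 15 had deviations with r over 0.1 (-0.67 to 0.43), beside 73 of 198 over all groups. For G1-1 overload and control every pair was over 0.1, which cannot decide whether the numbers pair there. With the replicate block within a particle 8 of the 10 were called with G1-1 overload, as without it, and 2 of the 10 were called with Bayertitan overload, 1, 3 and 1 with Printex90, G3-1 and Bayertitan non-overload, and 2 for Printex90 overload against non-overload, and with the block across particles 7 with G1-1 overload and 2 that differed between particles. Leaving out 1 library gave 3 to 4 with Printex90 overload, 5 to 8 with G1-1, 0 to 4 with G3-1, 0 to 3 with Bayertitan, 0 to 2 with G1-1 non-overload, 0 to 2 for overload against non-overload of Printex90 and of G1-1, 7 to 8 and 4 to 8 for the averages of overload and non-overload, 2 to 4 that differed between particles and 2 to 4 between controls. For list genes it gave 9 to 14 other HIF targets higher with G1-1 and, on average over particles, 20 to 24 higher and 3 to 4 lower, 1 to 2 higher and 0 to 1 lower of the HIF machinery, and 4 to 5 higher and 0 to 1 lower of the mitophagy genes.

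The counts over all genes depended more on these choices. Over the 10 settings the genes called with overload, in either direction, ran from 48 to 1594 with Printex90 (1158 as reported), 140 to 1002 with G1-1 (727), 0 to 77 with G3-1 (17) and 0 to 2102 with Bayertitan (1426), and with 1 library left out from 178 to 2234, 345 to 627, 1 to 60 and 0 to 2319. With G1-1 non-overload they ran from 0 to 19 (9), and from 0 to 10 with 1 library left out. For overload against non-overload they ran from 0 to 806 with Printex90 (230) and 36 to 446 with G1-1 (282), and with 1 library left out from 11 to 1078 and 69 to 246. Over the 9 settings that apply, the averages gave 382 to 4052 for overload (3484) and 1 to 930 for non-overload (399), and the tests of differences 12 to 639 between particles (249) and 41 to 1461 between controls (810). With 1 library left out the same 4 counts ran from 2697 to 3991, 147 to 1338, 87 to 566 and 312 to 954.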
